A study of Mus musculus with 4 samples.

Results

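B-lineage cells were compared between 2 libraries of mouse LSK cells, those titled Mll3/4 deleted and Mll3 deleted. A cell barcode was taken as B-lineage when it had at least 1000 genes, at most 10% mitochondrial UMIs (unique molecular identifiers), and at least 0.2% of its UMIs in 5 transcripts of early B cells, Cd79a, Vpreb1, Vpreb3, Igll1 and Ebf1. That rule took 4721 of 4748 barcodes past the filter in the Mll3/4-labelled library (99.4%, exact 95% binomial interval 99.2 to 99.6) and 165 of 6101 in the Mll3-labelled library (2.70%, 2.31 to 3.14). Together they made 4886 of the 22916 barcodes past the filter in all 4 libraries. The control library held 16 such barcodes of 7274 (0.220%) and the Mll4-labelled library 15 of 4793 (0.313%). Their values are given beside the main pair for part of the genes.

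LSK cells are lineage negative, Sca1 positive, Kit positive bone marrow cells, a fraction rich in blood stem cells and multipotent progenitors. All 4 libraries came from CD45.2 positive LSK cells taken 10 weeks after transplantation, with 1 library each for control, Mll3 deleted, Mll4 deleted and doubly deleted cells. RNA and 6 surface antibodies, against CD34, CD48, CD117, CD135, CD150 and CD201, were counted in the same droplets. Strain, age, the driver of the deletions and the number of animals behind a library are not given in the labels. Mll3 and Mll4 are the products of Kmt2c and Kmt2d, enzymes that place methyl groups on lysine 4 of histone H3, mainly at enhancers. With 1 library per genotype there was no replicate check and no test was run. All intervals are at the 95% level and cover counting error only.

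Early B cells are made in stages that are read from a handful of transcripts. Ebf1 and Pax5 are the transcription factors that set up the B-cell program, Rag1 and Rag2 cut the immunoglobulin genes for V(D)J recombination, and Il7r is the receptor for interleukin 7. Vpreb1 or Vpreb2 together with Igll1 makes the surrogate light chain, which pairs with the first heavy chain to form the pre-B cell receptor with Cd79a and Cd79b, while Vpreb3 binds heavy chains inside the cell. Kit and Sca1 (Ly6a) are normally read as stem and progenitor markers, Kit persisting into the earliest B cells.

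The surrogate light chain genes Vpreb1 and Vpreb2 are shown first because they are close copies whose levels differed in opposite directions between the libraries; Vpreb1 is 1 of the rule's 5 genes and Vpreb2 is not. The stretch of 106 bases that aligns between the 250 bases upstream of both RefSeq starts was identical at 104 positions. It is printed 5′ to 3′ in the direction of transcription, with the letters CAGGTG, an E-box of the kind bound by E proteins, in capitals.
Vpreb1 upstream stretch: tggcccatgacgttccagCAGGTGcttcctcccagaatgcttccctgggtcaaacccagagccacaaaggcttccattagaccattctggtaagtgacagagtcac
Vpreb2 upstream stretch: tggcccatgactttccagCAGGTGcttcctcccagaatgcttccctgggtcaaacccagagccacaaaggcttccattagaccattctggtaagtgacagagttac
The first lies at chr16:16869256-16869361 on the minus strand and the second at chr16:17980315-17980420 on the plus strand (RefSeq, GRCm38.p6). Searched on both strands, CAGGTG occurred in the 250 upstream bases of 17.1% of 27025 promoters. It was present in 3 of the 5 rule genes (Cd79a, Igll1 and Vpreb1), in 3 of the 7 genes found in the table out of the 12 with the lowest ratios (Cenpv, Lyl1 and Vpreb2), and in 0 of the 12 with the highest. Among all assessed genes found in the table the share was 13.0%, among those at least 2-fold lower 14.8% and at least 2-fold higher 12.6%. An EBF motif (0.788% of all promoters) and the PU.1 letters GAGGAAGT (2.44%) were searched for the same way. Neither was in a window of the 5 rule genes, the 7 lowest genes found or the 12 highest. Among assessed, lower and higher genes the EBF motif was in 0.720%, 0.741% and 1.48%. The PU.1 letters were in 2.44%, 3.89% and 2.47%. A match describes letters, not binding. Sites that depart from these exact letters were not searched for, so a window without a match may still hold one.

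Vpreb1 was counted at 1777 (1736 to 1818) UMIs per 1000000 (CPM) in the 165 Mll3-labelled barcodes and at 3185 (3169 to 3200.5) in the 4721 Mll3/4-labelled barcodes. It was 1895 in the 16 control and 1063 in the 15 Mll4-labelled barcodes. Vpreb2 (ENSMUSG00000059280, chromosome 16, 17980428 to 17981273, GRCm38) stood at 213 (199 to 228), 389.7 and 115 in the Mll3-labelled, control and Mll4-labelled barcodes, from 880, 138 and 43 UMIs. In the Mll3/4-labelled barcodes it was 0.619 (0.421 to 0.879), 31 UMIs in 18 barcodes. The 3 other libraries were all high and the Mll3/4-labelled one alone was near 0, 345-fold lower (241 to 510.3) than the Mll3-labelled one. The last 200 bases of the annotated coding transcripts of both genes are 96.5% identical, so reads that cannot be placed on 1 copy may be missing from either count.

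The rule itself set the floor for its 5 markers, so their levels are a description. The share of UMIs they took had a median of 1.25% in the Mll3/4-labelled members (range 0.210 to 3.95) and 0.628% in the Mll3-labelled members (0.202 to 2.29). The log2 ratios (Mll3/4-labelled over Mll3-labelled) were 1.28 for Ebf1, 0.97 for Cd79a, 0.84 for Vpreb1, 0.83 for Vpreb3 and 0.43 for Igll1. Near the threshold, 8 Mll3-labelled barcodes held 0.2 to 0.3% and 18 held 0.1 to 0.2%, against 4 and 0 in the Mll3/4-labelled library. The plot of the rule's share in each library shows that the Mll3/4-labelled barcodes form 1 mode to the right of the threshold. The Mll3-labelled library lies mostly near 0, and its members form a smaller group with few barcodes near the threshold. That group was fullest from 0.486 to 0.663%, with 29 barcodes in each bin there.

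**Figure D1:**
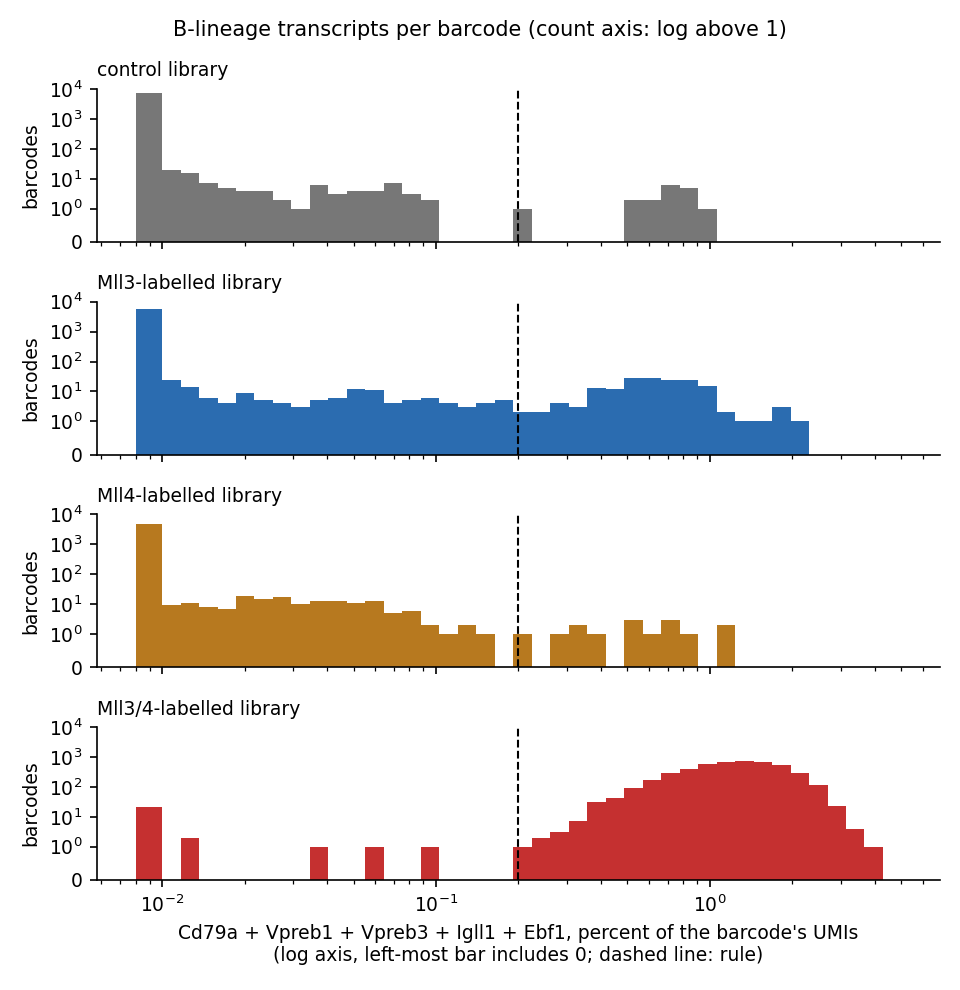
Number of barcodes (vertical axis, logarithmic above 1) by the percent of their UMIs in Cd79a, Vpreb1, Vpreb3, Igll1 and Ebf1 (horizontal axis, logarithmic), for each of the 4 libraries, with the rule's 0.2% as a dashed line. Nearly all Mll3/4-labelled barcodes (4721 of 4748) lie right of the line, against 165 of 6101 in the Mll3-labelled library.

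Depth and cell cycle differed between the 2 sets of members. Median UMIs per barcode were 8901 in the Mll3/4-labelled and 24168 in the Mll3-labelled members (20518.5 control, 16414 Mll4-labelled), and median genes 2779 and 4552. The summed UMIs were 50082722 and 4126091. Median mitochondrial shares were 4.39% and 3.52%. No member barcode was shared between any pair of libraries, and the Mll3-labelled and Mll3/4-labelled libraries had 9 deposited barcodes in common. Transcripts of the S phase and of the G2 and mitosis lists together took a median 0.128% of UMIs in the Mll3/4-labelled members, 1.17% in the Mll3-labelled and 1.11% in the control members. Their part in the other differences was examined by computing ratios also, a choice made after seeing these values, in barcodes with 0.5 to 1.5% of UMIs in these cell cycle genes (837 and 140 barcodes) and in barcodes with 10000 to 30000 UMIs (1934 and 119), called cycle-matched and depth-matched here.

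The labelled deletions were examined in the members. Kmt2c was at 15.3 (11.7 to 19.5) CPM in the Mll3-labelled members, 48.0 in the control members (17 UMIs), 48.2 in those labelled Mll4 (18 UMIs) and 42.5 (40.7 to 44.3) in the Mll3/4-labelled members. Kmt2d was at 20.4 (16.2 to 25.2), 28.2 (10 UMIs), 8.03 (3 UMIs) and 25.6 (24.2 to 27.1). Kmt2c was thus low in the Mll3-labelled members alone, and neither gene was low in the Mll3/4-labelled members. Reads from the 3′ end can come from the transcript of an allele whose deletion lies nearer its start, and the deleted part is not given. The low Kmt2c count seen under the Mll3 label was thus not seen under the double label, which also names Mll3. The reason was not tested, and these counts do not verify the double label.

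Of the 5711 genes that averaged 20 CPM or more over both sums, 526 (9.21%) were at least 2-fold higher and 679 (11.9%) at least 2-fold lower in the Mll3/4-labelled members. These 5711 are called assessed genes. Their median log2 ratio was -0.10. In this count 84 genes were at least 10-fold higher and 45 at least 10-fold lower. Scaled to a total without mitochondrial and ribosomal protein genes, which shifts every log2 ratio by 0.11, the counts were 862 and 620. Log2 ratios carry 0.5 UMIs added to each sum, while a fold is the plain ratio of CPM.

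The 12 genes with the lowest ratios were present in the Mll3-labelled members and nearly missing from the Mll3/4-labelled ones, and several encode surface proteins of early lymphoid cells. Cd52, a lipid-anchored lymphocyte glycoprotein, was at 249 (234 to 264) in the Mll3-labelled, 472 in the control, 407 in the Mll4-labelled members, but at 2.36 (1.95 to 2.82) in the Mll3/4-labelled ones. Cd93, the AA4.1 antigen of immature B cells, was at 128 (118 to 139.9), 152, 131 and 1.64 (1.30 to 2.03) in the same order. For both genes the 3 other libraries lay together, well above the Mll3/4-labelled one.

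Myl10, a myosin light chain gene, was at 235 (220.1 to 249.9) in the Mll3-labelled and 0.619 (0.421 to 0.879) in the Mll3/4-labelled members. Tbxa2r, the thromboxane receptor, was 264-fold lower (149 to 518) in the Mll3/4-labelled members, and Lyl1, a transcription factor of blood progenitors, 175-fold lower (123 to 255). Lsp1, an actin-binding protein of leukocytes, was 166-fold, the peptidase Napsa 115-fold, Emp3 90.8-fold and Cenpv 88.2-fold lower. Control and Mll4-labelled members held 8 to 128 UMIs of each of these 7 genes. They were also present in the Mll3-labelled barcodes outside the rule, from 27.4 (Tbxa2r) to 352 (Emp3) CPM, whereas Vpreb2 was at 1.77 there. Jchain, which joins immunoglobulin polymers, completed the 12 lowest with log2 -6.74, but 447 of its 470 UMIs in the Mll3-labelled members came from 1 barcode.

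The 12 genes with the highest ratios were almost undetected in the Mll3-labelled B-lineage barcodes. Gria2 (ENSMUSG00000033981, chromosome 3, 80681450 to 80802835), a subunit of AMPA glutamate receptors, had 37588 UMIs in 4427 of 4721 Mll3/4-labelled barcodes, 751 (743 to 758) CPM. It had 0 in the 165 Mll3-labelled and the 16 control barcodes and 5 in the 15 Mll4-labelled ones, whose sum holds only 373407 UMIs. Set against 3 UMIs in the Mll3-labelled sum, an upper limit for a count of 0, it was at least 1032-fold higher. The ephrin receptor Epha5 (7500 UMIs), Brinp3 (7048) and the adhesion protein Flrt2 (3340) also had 0 UMIs in the Mll3-labelled members and were at least 206-fold, 194-fold and 91.7-fold higher.

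Ly6c1, a lipid-anchored surface antigen of the Ly6 family, was at 698 (690.5 to 705) against 2.18 (0.997 to 4.14) CPM, and it has a close copy, Ly6c2, with which reads may be shared. Prlr, the prolactin receptor, was at 461 (455 to 467) against 3.88 (2.22 to 6.30), 119-fold higher (73.2 to 208). The protocadherin Pcdh7 had 4028 UMIs against 1 (ratio 332, counting interval 59.5 to 13110.5), and the scaffold protein gene Magi1 5060 against 2 (ratio 208, 57.7 to 1722). Ncam2, a neural adhesion molecule, had 2942 against 1 (ratio 242, 43.5 to 9577). The adhesion receptor Adgrf1 had 2808 against 1 (ratio 231, 41.5 to 9141) and Mab21l2 3667 against 2 (ratio 151, 41.8 to 1248). In the sum of the 16 control barcodes these 7 genes had 0 or 1 UMI each, a sum that holds only 354160 UMIs. In the Mll3-labelled barcodes outside the rule Ncam2 was at 5.84 and Pcdh7 at 5.45 CPM, and the other 5 at most at 1.002. Prlr and Adgrf1 are also in a list with Brinp3, Enpep and Ntn1. The sum of that list was 56.2 CPM in Mll4-labelled, 8.47 in control and 11.1 in Mll3-labelled members, against 1115 in the Mll3/4-labelled ones.

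Rnase10 (chromosome 14, 51007751 to 51010758), of the ribonuclease A family, was at 480.1 (474 to 486) CPM against 1.45 (0.534 to 3.17). Its neighbours of the same family Ang (chromosome 14, 51091150 to 51102009) and Rnase4 (51091077 to 51106151), picked after their values were seen, were at 87.2 against 5.82 and 260.4 against 12.6. In control and Mll4-labelled members none of the 3 had more than 3 UMIs. Rnase4 and Ang overlap and their reads may be split between them.

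**Figure D2:**
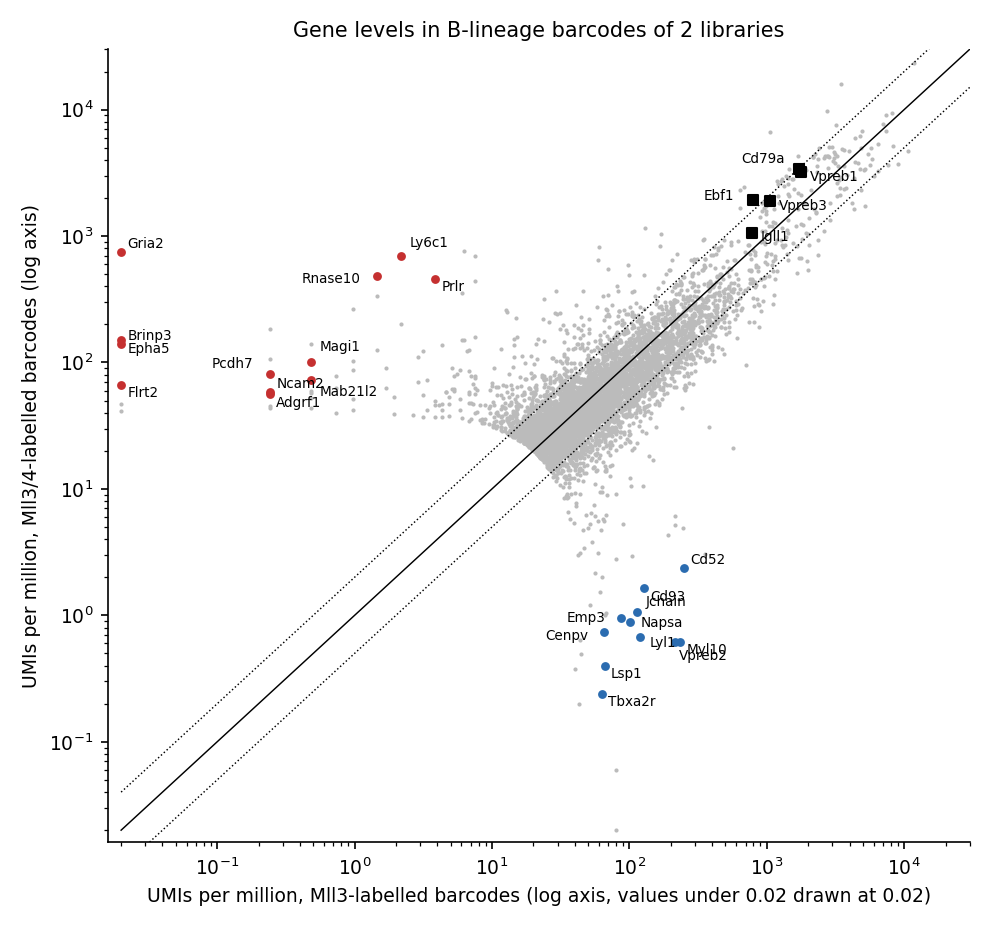
CPM (UMIs per 1000000) of 5711 genes in the Mll3-labelled (horizontal) and Mll3/4-labelled (vertical) B-lineage barcodes, both axes logarithmic, with very low values drawn at the axis limit. The solid line marks equality and the dotted lines 2-fold. The genes of lowest ratio (blue), such as Myl10 at 235 and 0.619, and the 12 highest (red), such as Gria2 at 0 and 751, lie far from the line, while the 5 rule markers (black squares) lie close above it.

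Components of the pre-B receptor and its signalling chain were uneven. Of 12 listed genes 8 were assessed, 0 were at least 2-fold higher and 2 at least 2-fold lower, against 9.21% and 11.9% of all genes, and the list median was -0.41 (0.020 with the total without mitochondrial and ribosomal protein genes). In cycle-matched barcodes 4 of the 8 were at least 2-fold lower and 0 higher, against 7.98% and 8.11% of all genes there. The list median was -1.03 there. Over all members, parts of the receptor itself were within 2-fold. Cd79b was at 454 (448 to 459.6) in the Mll3/4-labelled and 482 (461 to 504) in the Mll3-labelled members. Its log2 ratio was -1.10 (-1.19 to -1.01) in cycle-matched and -0.59 in depth-matched barcodes. Ighm, the first heavy chain constant gene, was at 853 (845 to 862) and 737 (711 to 764), and the adaptor Blnk at 559 (553 to 566) and 347 (329 to 366). The kinase Btk, which carries the signal onward, was at 61.1 (53.8 to 69.1) in the Mll3-labelled, 90.4 in the control, 74.99 in the Mll4-labelled members, but at 1.52 (1.20 to 1.90) in the Mll3/4-labelled ones, 40.2-fold lower (31.0 to 52.7) in the last than in the first. Plcg2, the phospholipase that Btk activates, was 6.53-fold lower (5.59 to 7.62). These 2 were also lower in cycle-matched (-4.88 and -2.98, log2) and depth-matched barcodes (-5.35 and -2.76).

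A further pair of genes of this list fell under the minimum level for the gene count and are given as counts. The kinase Blk had 56 UMIs in 37 Mll3-labelled barcodes and 1 in the Mll3/4-labelled ones, a ratio of 679.7 with a counting interval of 117 to 27321. Dok3, an adaptor that restrains the receptor, had 82 and 55 UMIs, a CPM 18.1-fold lower (12.7 to 25.9) in the Mll3/4-labelled members. Zap70, a kinase best known from T cells and a relative of Syk, was picked after its values were seen. It had 10049 UMIs in 3790 Mll3/4-labelled barcodes and 9 in the Mll3-labelled members, or 201 (197 to 205) and 2.18 (0.997 to 4.14) CPM. Syk itself was at 27.7 (26.2 to 29.1) and 51.9 (45.1 to 59.3).

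Among B-lineage transcription factors, 15 of 18 were assessed, 4 were at least 2-fold higher and 2 at least 2-fold lower, with a median of 0.43, against 9.21% and 11.9% of all assessed genes. Foxo1, which drives Il7r and the Rag genes in early B cells, was at 549 (542 to 555) CPM in the Mll3/4-labelled and 70.3 (62.4 to 78.9) in the Mll3-labelled members, with 84.7 in control and 104 in Mll4-labelled members. Ikzf1 (Ikaros), Bach2 and Pou2af1 had log2 ratios of 1.19, 1.15 and 1.03. Pax5 and Lef1, at 0.89 and 0.93, did not reach 2-fold. The lower pair was Irf8 at 5.25 (4.64 to 5.93) against 89.9 (81.0 to 99.5) and Spi1 (PU.1) at 4.75 (4.17 to 5.40) against 62.0 (54.7 to 70.1), both transcription factors shared with myeloid cells. Irf8 was 90.4 and 83.0, and Spi1 50.8 and 50.9, in control and Mll4-labelled members, so that the Mll3/4-labelled library was the low one among 4 for both.

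Of 8 assessed recombination genes 2 were at least 2-fold higher and 1 lower, against 9.21% and 11.9% of all assessed genes, with a median of 0.13 (-0.029 in cycle-matched barcodes). Rag1 was at 405 (399 to 410.5) CPM against 81.9 (73.4 to 91.1), and Rag2 at 149 (146 to 153) against 56.0 (49.0 to 63.7). Dntt, the template-free polymerase of early B cells, was at 1271 (1261 to 1281) against 1153 (1120.4 to 1186), and its log2 ratio of 0.14 turned to -0.22 in cycle-matched barcodes. Hmgb2, a chromatin protein of dividing cells, was lower (-1.19), but -0.082 in cycle-matched barcodes.

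The list of B-progenitor surface and other genes held genes of both directions. Of 17 assessed genes 4 were at least 2-fold higher and 8 at least 2-fold lower, against 9.21% and 11.9% of all assessed genes. The median was -0.65, and 1.73 over the genes of at least 100 CPM. Il7r was at 1034 (1025 to 1043) against 169.7 (157 to 183), with 152 in control and 238 in Mll4-labelled members. Enpep (ENSMUSG00000028024, chromosome 3, 129269175 to 129332720), the BP-1 peptidase used to stage pre-B cells, was at 356 (350.4 to 361) against 6.06 (3.92 to 8.94), 58.7-fold higher (39.7 to 90.7). Akap12 and Atp1b1 were at 1.66 and 1.79. Besides Cd93, the lower genes included Cd53, a tetraspanin of leukocytes (-4.69), Bst1, the BP-3 antigen (-3.82), Arpp21 (-3.13), Gfra2 (-2.26), Cecr2 (-1.87) and Cnp (-1.40). Bst1, Arpp21, Gfra2 and Cecr2 were at most 11.1 CPM in the Mll3-labelled barcodes outside the rule, and 42.2 to 147 in the members. The surface genes Cd24a (0.29) and Ly6d (0.82) did not reach 2-fold.

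Shares of barcodes with a UMI were compared after thinning each barcode to 3000 UMIs, which left out 33 Mll3/4-labelled members, 0 Mll3-labelled members and 17 Mll3-labelled barcodes outside the rule, whose median depths were 8901, 24168 and 15186 UMIs. Vpreb2 was present in 0.128% of Mll3/4-labelled members, 43.0% of Mll3-labelled members and 0.304% of barcodes outside the rule. Unthinned, the shares were 0.381%, 91.5% and 0.809%. For Il7r the thinned shares were 85.5%, 36.4% and 1.89%, and unthinned 96.7%, 91.5% and 3.69%. For Enpep they were 58.4%, 3.03% and 0.0169% thinned, and 82.0%, 9.70% and 0.168% unthinned. Gria2 was in 79.8% of thinned Mll3/4-labelled members and in 0 of the 165 Mll3-labelled members, which allows a share of up to 1.82%. The order of the 2 libraries was the same for each of these 4 genes with and without thinning.

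Immunoglobulin V segments were left out of the rule for named genes and were looked at after their values were seen. A V segment is 1 of many alternative gene pieces, of which a B cell joins 1 to a D and a J piece per heavy chain allele. Before joining, unrearranged V segments are themselves transcribed. The files list 185 heavy chain V segments (Ighv). In the Mll3/4-labelled members they had 152379 UMIs, 3043 CPM (3027 to 3058), and in the Mll3-labelled members 155 UMIs, 37.6 CPM (31.9 to 44.0). The control and Mll4-labelled members were at 28.2 and 32.1 CPM, from 10 and 12 UMIs. The ratio of the first pair was 81.0 (69.2 to 95.4), 60.7 in cycle-matched and 65.4 in depth-matched barcodes.

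Many segments were seen in the same barcode. Mll3/4-labelled members had UMIs from a median of 11 different heavy chain V segments (highest 32), Mll3-labelled members from a median of 0 (highest 5). After thinning to 3000 UMIs the share of barcodes with at least 2 segments was 97.1% (96.6 to 97.5) and 0.606% (0.0153 to 3.33). Ighv1-66 (chromosome 12, 115593110 to 115593591) led with 38339 UMIs in 4661 of 4721 barcodes, followed by Ighv1-23 with 22083 in 3596 and Ighv1-76 with 16851 in 4035. In the Mll3-labelled members Ighv1-23 and Ighv1-66 had 31 and 26 UMIs. Family 1, with 93 of the listed segments, took 95.6% of the V segment UMIs in the Mll3/4-labelled members. It took 80.6% in the Mll3-labelled, 80% in the control and 66.7% in the Mll4-labelled members, from far fewer UMIs. In the Mll3/4-labelled members the 93 segments farther from Ighm, 1228 to 2591 kb away, took 94.3%, against 5.68% for the 92 nearer ones. The same split was not summed in the Mll3-labelled members, so it is not given as particular to either library. There Ighv1-23 and Ighv1-66 of the farther set took 20% and 16.8%, and Ighv14-2 of the nearer set 14.2%. Segments of 1 family are alike in sequence, so reads may be split between them or lost, and counts of single segments are uncertain. Kappa light chain V segments (Igkv, 160 listed) had a UMI in 24.9% of Mll3/4-labelled and 1.82% of Mll3-labelled members, and in 6.25% of the 16 control and 26.7% of the 15 Mll4-labelled members.

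**Figure D3:**
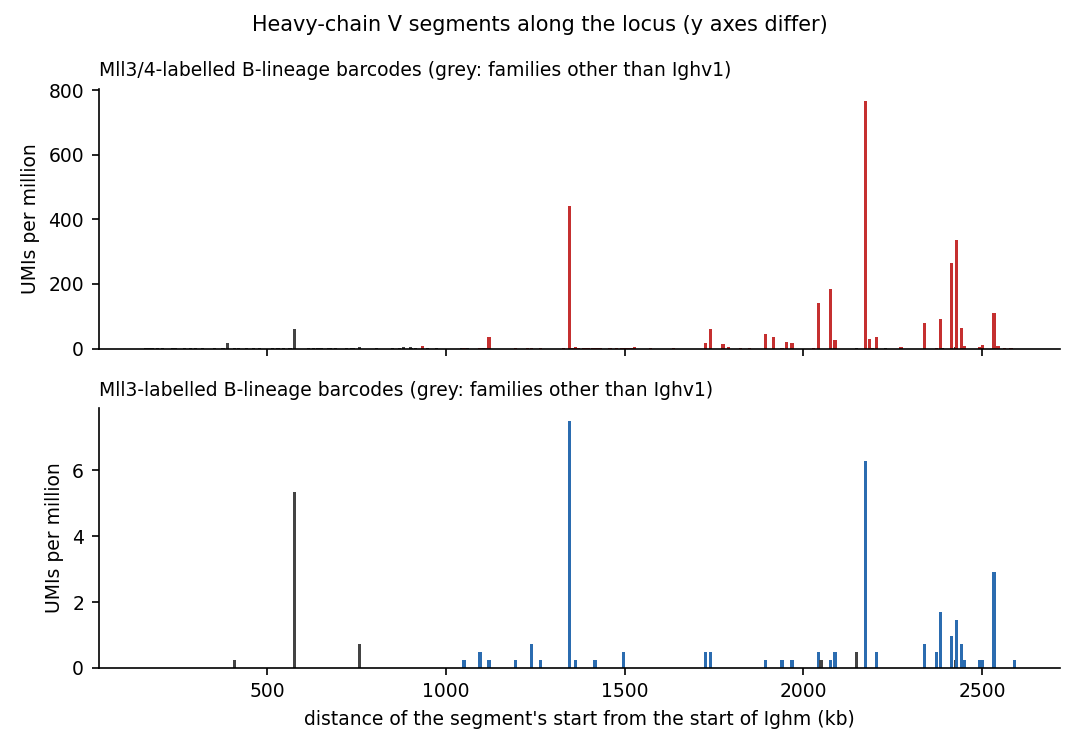
CPM (UMIs per 1000000) of each heavy chain V segment by its distance from the start of Ighm in kb, for Mll3/4-labelled (top) and Mll3-labelled (bottom) B-lineage barcodes; the vertical axes differ, and segments outside family 1 are dark grey. Ighv1-66 and Ighv1-23 are the 2 tallest bars in both libraries, in opposite order, at 766 and 441 CPM on top and 6.30 and 7.51 below.

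Constant genes differed in both directions. Ighd had log2 ratios of 0.98 to 1.47 over the main and alternative settings, while Ighg2b went the other way. Ighg2b had 329 UMIs in 62 of 165 Mll3-labelled barcodes, 69 in the control and 6 in the Mll4-labelled members, and 0 in the Mll3/4-labelled members. The Mll3-labelled level was 79.7 (71.4 to 88.8) CPM. Ighg2b, picked after its values were seen, was at least 1331-fold lower in the Mll3/4-labelled members. It has a close copy, Ighg2c, with which reads may be shared. Of the mature B and plasma list 5 genes were assessed, with 1 at least 2-fold higher (Xbp1, 1.03) and 2 lower, Jchain and Igkc. Among all assessed genes 9.21% were higher and 11.9% lower. The list median was -0.14. In cycle-matched barcodes Xbp1 was at 0.44, and 0 of 5 genes of the list were higher and 2 lower, against 8.11% and 7.98% of all genes. Of 2350 Igkc UMIs in the Mll3-labelled members 2249 came from 1 barcode, the same that held 447 of the Jchain UMIs. Without it the median of the list was 0.35.

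Stem and progenitor genes were not uniformly low in the Mll3/4-labelled members. Of 22 listed genes 8 were assessed, 5 were at least 2-fold higher and 2 lower, against 9.21% and 11.9% of all assessed genes. The median was 1.33 over these 8, -2.41 with no minimum level, and 0.57 in cycle-matched barcodes. There 3 of 8 were higher and 2 lower, against 8.11% and 7.98% of all genes. Kit, the receptor used in the sort, was at 247 (243 to 251) CPM against 31.5 (26.3 to 37.4), with 31.1 in control and 72.3 in Mll4-labelled members and 223 in the Mll3-labelled barcodes outside the rule. Ly6a (Sca1) was at 257 (253 to 262) against 83.6 (75.02 to 92.9), a log2 ratio of 1.62 that was 0.28 in cycle-matched barcodes. Hoxa9 and Meis1, transcription factors of blood progenitors, were at 1.58 and 1.08. Lmo2, a nuclear adaptor of stem cells, was at 2.96 (2.50 to 3.47) against 104 (94.4 to 114) CPM, and Angpt1 had a log2 ratio of -2.04. The stem cell genes Hlf and Procr were under the minimum, at 9 and 1 UMIs in the Mll3/4-labelled and 113 and 17 in the Mll3-labelled members.

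Cell cycle genes differed in 1 direction. In the S phase list 13 of 16 assessed genes were at least 2-fold lower and 0 higher (median -1.34), and in the G2 and mitosis list 15 of 16 lower and 0 higher (median -1.65), against 11.9% of all genes. Uhrf1 was at 43.4 (41.6 to 45.2) against 242 (227 to 257), Cdk1 at 127 (124 to 130.3) against 472 (451 to 493) and Mki67 at 463 (457 to 469) against 948 (918 to 978). Mki67 was present in 27.4% of Mll3/4-labelled and 84.2% of Mll3-labelled members thinned to 3000 UMIs, and in 30.3% of barcodes outside the rule. For Uhrf1 the same shares were 7.19%, 50.9% and 18.4%. For both genes the Mll3-labelled members were highest and the Mll3/4-labelled members lowest, as for the cell cycle share, whose median outside the rule was 0.284%. Barcodes were matched on the sum of these same genes, which narrows these lists by construction. There 3 and 0 genes were at least 2-fold lower, against 7.98% of all genes, with medians of -0.57 and -0.34. Mki67, Top2a and Cenpf had log2 ratios of 0.31, 0.32 and 0.68.

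**Figure D4:**
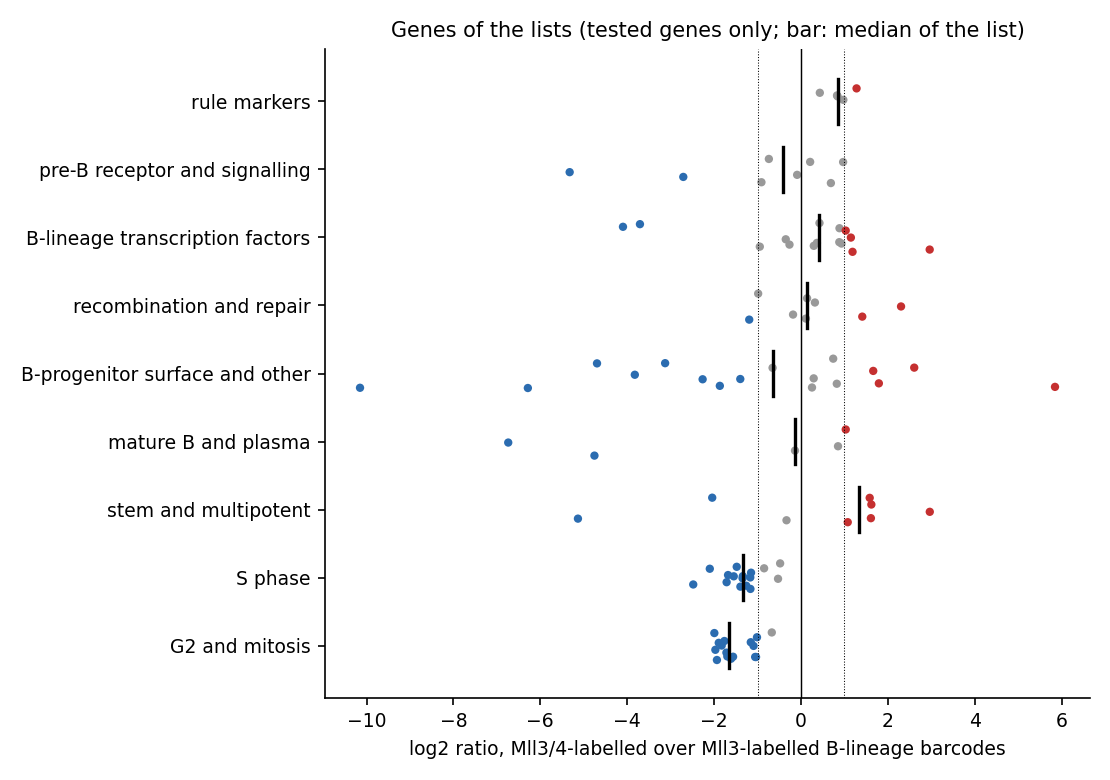
Log2 ratio (Mll3/4-labelled over Mll3-labelled B-lineage barcodes) of each assessed gene in 9 gene lists, with the list median as a black bar and the 2-fold limits dotted; red genes are at least 2-fold higher and blue at least 2-fold lower. Cell cycle lists lie left of 0 (medians -1.34 and -1.65), while B-progenitor surface genes lie on both sides of 0, among them Cd93 at -6.29 and Enpep at 5.85.

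The ratios of several B-lineage genes were also computed in the matched barcodes, which remained unequal: the cycle-matched sets had median UMIs of 15814 and 24339.5, and the depth-matched sets 14261 and 21876, with cell cycle shares of 0.342% and 1.14% (Mll3/4-labelled first). In cycle-matched barcodes Vpreb2 stood at -7.81, Cd93 at -7.01, Irf8 at -3.04, Il7r at 1.89, Foxo1 at 2.56, Enpep at 5.71 and Kit at 2.55, on the log2 scale. The depth-matched values were -9.66, -6.57, -3.75, 1.96, 2.79, 5.59 and 2.96. Of 5624 genes assessed in cycle-matched barcodes 8.11% were at least 2-fold higher and 7.98% at least 2-fold lower.

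Markers of other cell types were looked for in the members. The 12 myeloid markers summed to 16.4 CPM in the Mll3/4-labelled, 174.3 in the Mll3-labelled, 98.8 in the control and 1010 in the Mll4-labelled members, with 0, 1, 4 and 1 markers at 0. Of the 18 genes of the myeloid list 3 were assessed, and these 3 were at least 2-fold lower, Prtn3 (-6.01), Lyz2 (-2.94) and Plac8 (-1.58). For this and the other lists of this paragraph, the shares of all assessed genes were 9.21% higher and 11.9% lower. T-cell markers summed to 33.3 and 5.09 CPM in the Mll3/4-labelled and Mll3-labelled members, with 4 of 9 at 0 in each, and none of that list was assessed. Dendritic markers summed to 181.2 and 257.1, with Siglech, Klk1, Itgax and Cd209d at 0 in both. Of that list 3 genes were assessed, with Tcf4, also a B-lineage factor, higher (2.31) and Bst2 lower (-1.21). Mature B and plasma markers summed to 47.5 and 707.0, and 1 Mll3-labelled barcode, the one rich in Igkc and Jchain, had 10.6% of its UMIs in them. Erythroid and megakaryocyte markers summed to 197.4 and 3.64, with 2 and 1 of 7 at 0. Of the erythroid and megakaryocyte list 3 genes were assessed and 2 were at least 2-fold higher, Hba-a1 and Hbb-bs, where 3 barcodes held 97.7% of all haemoglobin UMIs of the Mll3/4-labelled members. The part of other cells in the differences was not tested, but barcodes with more than 0.1% of UMIs from such markers (71 and 6) were also left out as an alternative: 527 genes were then at least 2-fold higher and 674 at least 2-fold lower.

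The interferon response, H3K4 methyltransferase and immediate early lists each had 1 gene at least 2-fold higher and 1 lower. In the interferon response list 1 of 6 assessed genes was at least 2-fold higher (Ifi203) and 1 lower (Bst2), with a median of 0.35, against 9.21% and 11.9% of all assessed genes. Of 12 assessed genes of the H3K4 methyltransferase list, Kmt2c was at least 2-fold higher and Wdr5, a shared core subunit, lower (log2 -1.23). The same shares of all assessed genes, 9.21% and 11.9%, stand beside these. The list median was 0.21. Among immediate early genes, 1 of 7 was higher (Egr1) and 1 lower (Ier2), against 9.21% and 11.9%, with a median of -0.25. The 5 genes singled out earlier from the Mll3/4-labelled library (Brinp3, Enpep, Adgrf1, Ntn1 and Prlr) were all at least 2-fold higher here (median 6.85), which is not independent, as they were picked on the same barcodes.

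The surface antibodies set the 2 groups apart as well. Of all antibody counts in the members, CD117 (Kit protein) took 45.8% in the Mll3/4-labelled and 3.05% in the Mll3-labelled barcodes, and CD48 44.1% and 93.3%. Median CD117 counts per barcode were 498 (quartiles 313 and 754) in the Mll3/4-labelled members, 78.0 (quartiles 62.0 and 110) in the Mll3-labelled members and 414 (quartiles 265 and 590) in the Mll3-labelled barcodes outside the rule. Of 4721 Mll3/4-labelled members 3838 (81.3%, 80.2 to 82.4) had at least 265 CD117 counts, the lower quartile of the barcodes outside the rule, against 15 of 165 Mll3-labelled members (9.09%, 5.18 to 14.6). Kit protein and Kit mRNA were both lower in the Mll3-labelled members than in the rest of their library, although the labels give all 4 libraries as Kit positive cells. In the control library the CD117 median was 58 in the 16 members and 217 (quartiles 150 and 301) outside the rule. Raw CD117 counts outside the rule thus differed between libraries. The limit of 265 comes from the Mll3-labelled library alone, and a difference in scale between libraries was not tested.

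CD48, a surface protein of most lymphoid and myeloid progenitors, had a median of 102 (quartiles 56.0 and 284) counts in the Mll3/4-labelled members, 3827 (quartiles 2921 and 5118) in the Mll3-labelled members and 255 (quartiles 96.0 and 1028) outside the rule. Its mRNA, Cd48, was at 10.6 (9.68 to 11.5) against 126 (116 to 138) CPM. Median counts of CD150 were 37 and 17, of CD201 29 and 12, of CD135 31 and 19, and of CD34 13 and 33, in the Mll3/4-labelled and Mll3-labelled members. Total antibody counts per barcode had medians of 849 and 4040. CD48 itself took 44.1% and 93.3% of the counts. Totals, and shares of them, therefore move with CD48 and are no baseline for the other antibodies. Of the genes of these 6 targets, Slamf1 (CD150), Procr (CD201) and Cd34 were under the minimum level, Flt3 (CD135) had a log2 ratio of -0.33, Kit was higher and Cd48 lower, with a median of -0.33 over the 3 assessed.

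**Figure D5:**
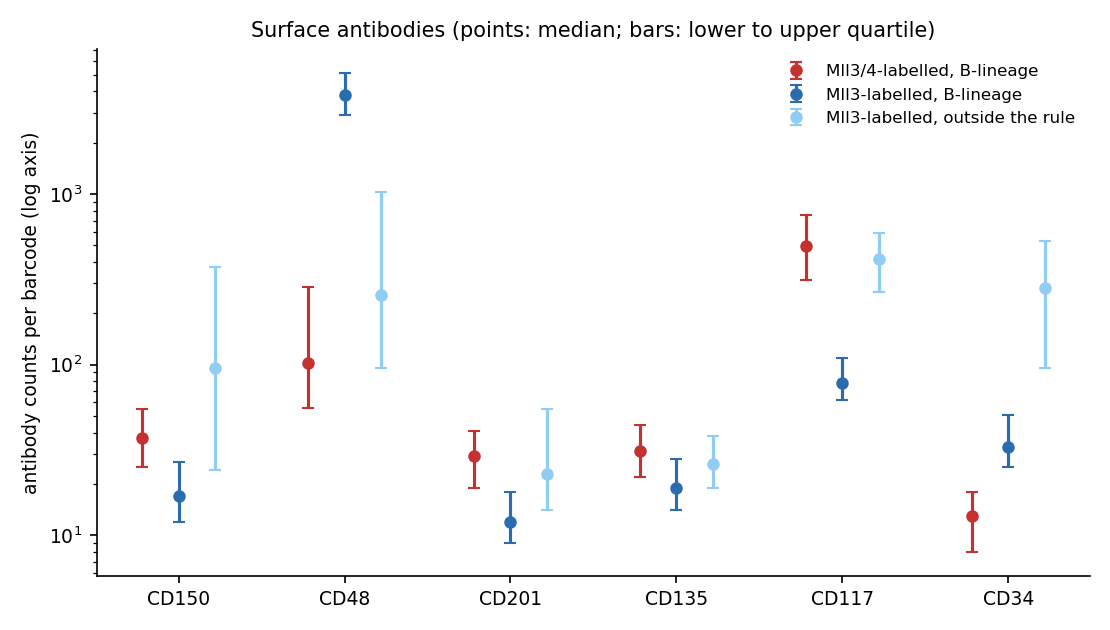
Counts per barcode of the 6 antibodies (vertical axis, logarithmic; points are medians and bars run from the lower to the upper quartile) in Mll3/4-labelled and Mll3-labelled B-lineage barcodes and in Mll3-labelled barcodes outside the rule. The CD48 median is 102 in the first and 3827 in the second set, and the CD117 median 498 and 78.

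CD48 was unevenly spread among the Mll3/4-labelled members. With a limit of 1000 counts, set after the values were seen, 741 of 4721 (15.7%, 14.7 to 16.8) were at or above it, against 163 of 165 Mll3-labelled, 16 of 16 control and 13 of 15 Mll4-labelled members. A further count shows how many lay near it: 481 Mll3/4-labelled members lay between 500 and 2000 counts. Cd48 mRNA, which did not set the limit, was at 55.7 (50.7 to 61.1) CPM in the 741 and 1.83 (1.45 to 2.29) in the other 3980 barcodes, 30.3-fold (23.8 to 39.2) apart. The groups had median depths of 8621 and 8914.5 UMIs, cell cycle shares of 0.135% and 0.126% and CD117 medians of 531 and 493. Of 5745 genes assessed between them, 2 were at least 2-fold higher in the CD48-high barcodes, Cd48 and Lyz2, and 2 lower, Dcn and Gal. Il7r was at 1042 and 1032, Kit at 248 and 247 and Gria2 at 697 and 761 CPM.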

How the data were processed

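The values are raw UMI counts per gene and antibody and barcode, deposited by the authors as 1 matrix per library and made with Cell Ranger 6.1.1 per the file headers and the submitters' processing notes, which name the build mm10. How the deposited barcodes were chosen is not given in the sources used here. Gene coordinates come from GENCODE M21 (GRCm38), which held 99.6% of the gene identifiers, and promoter sequence from RefSeq (GRCm38.p6).

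UMIs were summed over the B-lineage barcodes of a library and scaled to CPM. Intervals are exact (Poisson, conditional binomial, Clopper-Pearson). The text names the 12 highest and 12 lowest log2 ratios among genes of at least 50 CPM in 1 of both sums, leaving out mitochondrial, ribosomal, haemoglobin, immunoglobulin, T-cell receptor, sex-linked and unnamed genes, and the genes of fixed lists. Genes picked after their values were seen are given as such, and 3 genes that these rules name are not reported here. The members and lists were chosen with earlier results of these data known. A gene is called at 2-fold with a mean of at least 20 CPM, a step that was tested on simulated data.

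No doublets were removed in the main values. Scrublet (in scanpy 1.11.5) marked 0 barcodes of the Mll3/4-labelled library, 2 of the Mll3-labelled, 2 of the control and 168 of the Mll4-labelled library at its own threshold, under 0.5% of barcodes in 3 of the 4, so its highest scores were removed as an alternative. Other alternatives were scalings with edgeR 4.0.16 and DESeq2 1.42.0, other totals, weights, minimum levels, barcode filters and rule thresholds, barcodes of other cell types left out, and barcodes matched on cell cycle or depth. Alignments used Biopython 1.88.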

Additional observations from a re-analysis of the deposited data

How the results depend on the processing

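With 1 library per genotype, a difference between libraries and a difference between genotypes cannot be told apart, and counting intervals do not cover the spread between animals. The Mll3-labelled sum rests on 165 barcodes, and the control and Mll4-labelled sums on 16 and 15, so genes at a few UMIs there are not measured closely. Of 97 genes followed under 16 alternatives each, 10 whose counting interval left out a ratio of 1 changed direction in at least 1 of them, all given here. Slamf1, whose interval did not (-1.69 to 0.28, log2), ran from -2.11 to 1.92. The matching on cell cycle and on depth and the removal of 1 barcode were chosen after seeing the data. Causes of the changes were not tested except where the setting's construction shows them (more or fewer genes tested, fewer barcodes). No paired analysis was possible because each genotype had 1 library.

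The number of genes at least 2-fold higher, 526, was 862 with the total without mitochondrial and ribosomal genes, 1324 with a minimum mean of 5 CPM, 131 with 100 and 3423 with none. The number lower, 679, was 252 with a minimum of 100, 4590 with none, 1105 with the rule at 1% (3328 and 12 barcodes) and 449 in cycle-matched barcodes. The share of Mll3/4-labelled barcodes in the rule was 97.3% with the rule at 0.5%, 70.1% at 1% and 99.9% without barcodes above 2 times the median UMIs. The Mll3-labelled share was 4.00% when barcodes needed 2000 genes and no more than 5% mitochondrial UMIs, 2.02% and 0.197% with the rule at 0.5% and 1%, and 2.22% without the deepest barcodes.

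List medians changed sign as follows. The pre-B receptor list was at 0.020 with the reduced total and 0.45 with a minimum of 100, where recombination was at -0.021, B-progenitor surface at 1.73 and immediate early at 0.10. Recombination was at -0.029 in cycle-matched barcodes, and the stem list at -2.41 with no minimum. The H3K4 list was at -0.032 with the rule at 1%, and the median of all assessed genes at 0.044 with the reduced total and 0.032 with a minimum of 5. The mature B and plasma list was at 0.28 with the rule at 0.5%, 0.34 without the highest Scrublet scores, 0.86 without barcodes of other cell types and 0.35 without the immunoglobulin-rich barcode, and Igha in the same order at 0.26, 0.39, 0.54 and 0.40.

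Among single genes, Cd79b was at 0.020 with the reduced total, 0.054 with equal weight per barcode, 0.0090 with the rule at 0.1% and 0.015 without the deepest barcodes. Ighm was at -1.13 and -0.16 with the rule at 0.1% and 1%, -0.15 in cycle-matched and -0.060 in depth-matched barcodes. With the rule at 1% Igll1 was at -0.31 and Kmt2c at -0.032. Dntt was at -0.22 and -0.26 in cycle-matched and depth-matched barcodes. In cycle-matched barcodes Kmt2d was at -0.16, Mki67 at 0.31, Top2a at 0.32 and Cenpf at 0.68.

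The log2 ratio of the CD48 share, -1.08, was -1.09 with the stricter barcode filter, -1.07, -1.10 and -1.11 with the rule at 0.1%, 0.5% and 1%, -1.11 without the highest Scrublet scores, -1.10 without the deepest barcodes, -1.09 without barcodes of other cell types, -1.09 and -1.20 in cycle-matched and depth-matched barcodes, and -2.70 from the medians of each barcode's own share of antibody counts. That of CD117, 3.91, was 3.77, 4.203 and 4.39 with the 3 rule thresholds, 4.43, 4.10 and 3.96 with the next 3 settings, 4.19 in depth-matched barcodes and 5.06 from medians of shares. The CD34 ratio, -0.11, became positive with the rule at 0.5% (0.23) and 1% (0.72), without the highest Scrublet scores (0.50), the deepest barcodes (0.038) or those of other cell types (0.024), and from medians of shares (0.81).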

Other observations

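The 27 Mll3/4-labelled barcodes past the filter but outside the B-lineage rule held 27486 Igkc UMIs in 4 barcodes, 9045 Iglc2 UMIs in 3 and 5179 Jchain UMIs in 3, against 1057, 4 and 53 in the 4721 members. Igkc and Iglc2 encode light chains and Jchain the joining chain of secreted antibodies. Mpo, a granule enzyme of myeloid progenitors, had 526 UMIs in 5 of them. Gria2 and Enpep, abundant in the members, had 1 and 2 UMIs there. The genes were picked after their values were seen.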
